A study of Mus musculus with 18 samples.

Results

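The mitosis genes are a group of 39 genes that carry a cell from entry into mitosis through chromosome segregation to the division of the cytoplasm. Their members were chosen by name, with earlier results of these data known, and each was read through the probes that the array annotation assigns to it. Of the 39 genes, 38 had at least 1 probe on the array (76 probes in all), and 33 of the 11149 genes tested in the series were mitosis genes. Ccnb1, which encodes the main B-type cyclin of mitosis, had 0 annotated probes. A further 5 genes had probes, but none detected on at least 3 arrays: Bub1 (a checkpoint kinase), Ccnb2 (a second B-type cyclin), Cenpe (a kinetochore motor) and Kif20a (a kinesin of cytokinesis) were detected on 0 of 18 arrays, and Racgap1 (a regulator of the contractile ring) on 2. These 6 genes were not tested.

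Mitosis begins when the kinase CDK1 binds a cyclin, which starts chromosome condensation, breakdown of the nuclear envelope and assembly of the spindle. Kinetochores, protein layers built on the centromere, then attach to spindle microtubules, and the spindle checkpoint holds the cell until attachment is complete. The anaphase-promoting complex, with its activator CDC20, then marks securin and cyclin B for destruction, so that the sister chromatids part and cytokinesis follows. Transcripts of many of these genes are low in G1 and high in G2 and mitosis, through promoters that carry CCAAT boxes bound by NF-Y and an element called the cell cycle genes homology region (CHR), which recruits the DREAM and MuvB complexes. Adherent cells that lose contact with their substrate commonly stop dividing, while transformed cells may go on dividing in suspension.

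Transcripts were read with 18 Illumina BeadChip arrays (45281 probes), 3 in each of 6 groups. Every group came from a C57BL/6N hepatocyte line without the aryl hydrocarbon receptor (AhR, a ligand-activated transcription factor), transformed by the SV40 mutant virus tsA209. The reconstituted line stably expressed the tetracycline repressor TetR (pLenti6/TR) and a HisMyc-tagged mouse AhR (pLV501_HisMyc_mAhR), and the AhR-null line expressed TetR alone. Each line was held for 8 h in suspension in 1.68% methylcellulose, adherent with 10 µM of the AhR ligand YH439, or adherent with 0.1% DMSO. The medium had 10% fetal calf serum and 100 nM dexamethasone, at 34 °C, and cells were confluent when treated. The part of confluence in the values of these genes was not tested. Suspended cells had also been trypsinised, and no DMSO is recorded for them. Whether either line is a single clone is not stated. The samples are labelled biological triplicates with no mention of separate cultures, so the p-values reflect the spread among samples that may be technical repeats.

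Between 42% and 44.6% of probes were detected per array, and the number of arrays limits the precision. The 6 dimmest arrays were replicate 1 of the 3 reconstituted groups and replicate 3 of the 3 AhR-null groups, with median signals of 6.03 to 7.19, against 8.78 to 11.9 on the other 12 arrays. Within a line, arrays with the same replicate number tended to deviate in the same way from their group means, though AhR-null replicates 1 and 2 also resembled each other. Values with the replicate number as a block are therefore given where they change a count or a call. Of 21 hepatocyte genes with probes, 12 were detected on no array, among them albumin (Alb), Apoa1, Ttr and Cps1. All arrays detected 5 of the 21 (Foxa2, Trf, Asgr1, Krt8 and Krt18), against 11 of 14 mesenchymal and stellate cell markers. Detection thus went with the hepatocyte label of these cells for some genes of that list and not for others, and it does not settle the cell type.

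The promoters of 6 members are shown because they carry the elements through which mitotic transcription is known to be controlled, or lack them. Each line gives the 150 bases before the transcription start from RefSeq (mouse build GRCm38.p6), 5′ to 3′ on the strand of the gene. Capitals mark the box CCAAT and the CHR letters, which are TTTGAA or, in some promoters, TTTAAA. A box on the opposite strand reads ATTGG here. In the Kif11 promoter the CHR lies on the opposite strand and its capitals read TTCAAA. Cdk1, Cdc20, Cenpa, Kif11 and Nuf2 were lower in suspension in both lines, and Nek2 was higher. The regions are chr10:69352913-69353062 (minus strand) for Cdk1, chr4:118437344-118437493 (minus strand) for Cdc20, chr5:30666736-30666885 (plus strand) for Cenpa, chr19:37376232-37376381 (plus strand) for Kif11, chr1:169531465-169531614 (minus strand) for Nuf2 and chr1:191821323-191821472 (plus strand) for Nek2.
Cdk1: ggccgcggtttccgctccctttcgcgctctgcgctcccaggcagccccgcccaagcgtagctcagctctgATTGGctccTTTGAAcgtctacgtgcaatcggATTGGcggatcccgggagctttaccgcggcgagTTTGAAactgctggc
Cdc20: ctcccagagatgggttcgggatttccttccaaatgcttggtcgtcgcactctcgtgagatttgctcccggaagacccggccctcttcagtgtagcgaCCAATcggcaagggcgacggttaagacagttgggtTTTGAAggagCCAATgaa
Cenpa: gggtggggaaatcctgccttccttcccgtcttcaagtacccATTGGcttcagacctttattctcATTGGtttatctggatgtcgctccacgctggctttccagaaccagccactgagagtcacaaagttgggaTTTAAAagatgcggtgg
Kif11: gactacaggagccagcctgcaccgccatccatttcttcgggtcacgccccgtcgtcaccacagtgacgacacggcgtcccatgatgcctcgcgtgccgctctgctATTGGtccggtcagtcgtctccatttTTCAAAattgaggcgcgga
Nuf2: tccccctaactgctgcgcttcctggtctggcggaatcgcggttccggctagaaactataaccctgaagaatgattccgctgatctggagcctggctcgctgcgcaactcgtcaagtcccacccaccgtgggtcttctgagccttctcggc
Nek2: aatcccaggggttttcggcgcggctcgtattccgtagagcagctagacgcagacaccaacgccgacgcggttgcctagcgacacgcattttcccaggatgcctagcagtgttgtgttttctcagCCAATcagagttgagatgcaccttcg

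In these 150 bases Cdk1 has 2 CCAAT boxes and 2 copies of TTTGAA, and Cdc20 has 2 boxes and 1 copy of TTTGAA that ends 13 bases before the start. Nuf2 has no match to any of the letters, and Nek2 has 1 CCAAT box and no CHR letters. Over the longer window of 250 bases before to 50 after the start, searched on both strands, 33 of the 39 members had a sequence in the RefSeq table. Spc24, Aurkb, Ccna2, Tpx2, Kif20a and Incenp had none there. TTTGAA occurred in 24 of the 33 members (72.7%), against 20.2% of all 27025 genes with a window. CCAAT occurred in 25 members (75.8%), against 41.1% of all genes, and 2 or more CCAAT boxes in 54.5%, against 13.3%. CCAAT together with TTTGAA or TTTAAA was found in 69.7% of the members, against 12.2% of all genes. The motif shares did not follow the response to suspension in one direction: TTTGAA or TTTAAA was in 76.9% of the 13 genes that fell in both lines and in 91.7% of the 12 genes with a window that passed in neither, and CCAAT was in 76.9% and 66.7%. A match is a description of letters and not of binding.

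Suspension lowered many mitosis genes in both lines. In the reconstituted cells 15 of the 33 tested members fell and 1 rose after 8 h in suspension, against DMSO (adjusted p under 0.05 in limma's test over all genes). In the AhR-null cells 13 fell and 1 rose. Of all 11149 genes, 24.1% passed in the reconstituted comparison (13.4% lower) and 22.6% in the AhR-null comparison (11.9% lower), against 48.5% (45.5% lower) and 42.4% (39.4% lower) of the members. The members were chosen with earlier results of these data known, so this excess may come in part from that choice. The falls were moderate: the members' median log2 change was -0.34 in reconstituted and -0.36 in AhR-null cells, while the median of all genes was -0.04 in each, and 28 of 33 members lay below 0 in each line. With the replicate block, 24 members passed in reconstituted cells (22 lower, 2 higher) and 26 in AhR-null cells (24 lower, 2 higher), where 48.6% (27.4% lower) and 47.1% (26% lower) of all genes passed. Without the 6 dimmest arrays the members that passed were 19 (18 lower, 1 higher) and 20 (17 lower, 3 higher), where 38.5% and 37.1% of all genes passed. With median scaling in place of quantiles 8 members passed in reconstituted cells (7 lower), where 14.1% of all genes did (7.09% lower) and the members' median was -0.36. With only the groups compared 3 members passed in AhR-null cells (2 lower), where 7.72% of all genes did (3.08% lower), and the medians of the members and of all genes stayed at -0.36 and -0.04. RNA of whole cultures does not tell fewer cells in mitosis from less of a transcript per cell.

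**Figure D1:**
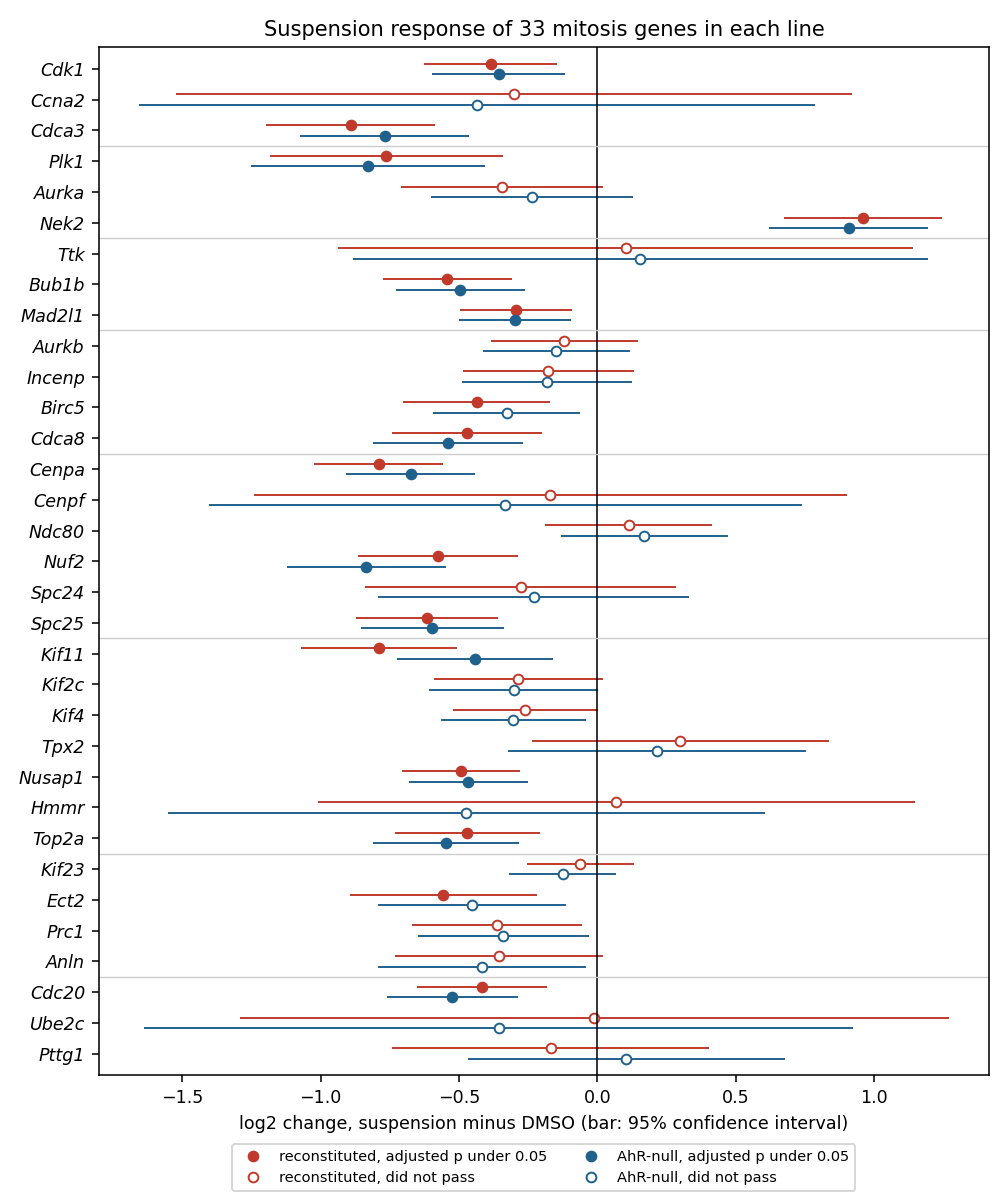
Log2 change in suspension minus DMSO (x axis) of the 33 tested mitosis genes (rows, with lines between functional classes) in reconstituted (red) and AhR-null cells (blue). Bars are 95% confidence intervals and filled points passed an adjusted p under 0.05. Most points lie left of 0 in both lines, Nek2 lies far to the right, and Ccna2, Ttk, Cenpf, Hmmr and Ube2c have the widest bars.

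The 13 genes that fell in both lines were Cdk1, Cdca3, Plk1, Bub1b, Mad2l1, Cdca8, Cenpa, Nuf2, Spc25, Kif11, Nusap1, Top2a and Cdc20. Birc5 and Ect2 fell in the reconstituted cells and did not pass in the AhR-null cells, and Nek2 rose in both. Each functional class except cytokinesis holds at least 1 of the 13, from the entry kinase to the activator of anaphase. The other 17 tested members did not pass in either line. These calls rest on the brightest probe. With p adjusted over all kept probes, both probes of Bub1b, Cdca3, Cenpa and Spc25 passed as lower in each line. In each line 1 of 3 probes of Cdk1 and Top2a and 1 of 2 of Cdca8 and Mad2l1 passed as lower. Nusap1 had 1 of 3 lower in reconstituted and 2 of 3 in AhR-null cells. In the same order, Cdc20 had 2 and 3 of 4, Birc5 2 and 1 of 3, and Anln 0 and 1 of 2. Median scaling ended the reconstituted call of 10 genes, Birc5, Bub1b, Cdc20, Cdca8, Cdk1, Ect2, Mad2l1, Nuf2, Nusap1 and Spc25 (adjusted p between 0.0518 and 0.273), and the AhR-null call of 5, Cdc20, Kif11, Mad2l1, Nusap1 and Spc25 (between 0.0537 and 0.0802). The authors' processed values ended the reconstituted call of Birc5, Cdc20, Ect2 and Mad2l1 (adjusted p between 0.0601 and 0.295). With only the groups compared, the AhR-null calls of Cenpa, Nuf2 and Nek2 held and the other 11 were lost (adjusted p between 0.0527 and 0.176), as was the reconstituted call of Mad2l1 (0.0984).

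Among the entry genes, Cdca3, which promotes mitotic entry by helping to degrade the CDK1 inhibitor kinase WEE1, had normalized log2 intensities of 10.64, 10.84 and 10.55 in suspended reconstituted cells, against 11.41, 11.64 and 11.65 with DMSO. In AhR-null cells its values were 10.72, 10.31 and 10.33 in suspension and 11.09, 11.07 and 11.50 with DMSO. The suspended arrays lay below the DMSO arrays in each line, with no overlap. Cdca3 fell by 0.89 ± 0.14 on the log2 scale (1.85-fold lower; SE, 3 arrays per group, adjusted p = 0.000327) in reconstituted cells and by 0.77 ± 0.14 (adjusted p = 0.00115) in AhR-null cells. Cdk1, the kinase that drives mitosis, fell by 0.38 ± 0.11 (adjusted p = 0.0208) in reconstituted and by 0.36 ± 0.11 (adjusted p = 0.0326) in AhR-null cells. The call of Cdk1 was lost without reconstituted suspension replicate 1 (adjusted p = 0.0647) or 2 (0.0641) or reconstituted DMSO replicate 2 (0.0542) or 3 (0.0622). In AhR-null cells it was lost without suspension replicate 1 (adjusted p = 0.0872) or 2 (0.124) or DMSO replicate 2 (0.077) or 3 (0.127). Ccna2, the cyclin of S phase and early mitosis, stood at -0.30 ± 0.57 in reconstituted and -0.43 ± 0.57 in AhR-null cells and did not pass (adjusted p = 0.769 and 0.661), and it passed in AhR-null cells with the replicate block (adjusted p = 0.0212).

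Of the mitotic kinases, Plk1, which acts in centrosome maturation, spindle assembly and cytokinesis, measured 10.69, 10.46 and 10.34 in suspended reconstituted cells, against 11.43, 11.18 and 11.17 with DMSO (log2 intensity). AhR-null cells gave 10.30, 9.78 and 10.49 in suspension and 10.84, 10.86 and 11.35 with DMSO. Groups did not overlap in either line, and the AhR-null arrays were the more spread. The falls were 0.76 ± 0.20 (1.70-fold lower, adjusted p = 0.0106) in reconstituted and 0.83 ± 0.20 (1.78-fold lower, adjusted p = 0.0067) in AhR-null cells. Aurka, the spindle pole kinase, stood at log2 changes of -0.34 ± 0.17 and -0.24 ± 0.17 and did not pass (adjusted p = 0.171 and 0.378). With the replicate block it was lower in both lines (adjusted p = 0.00649 and 0.0441).

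**Figure D2:**
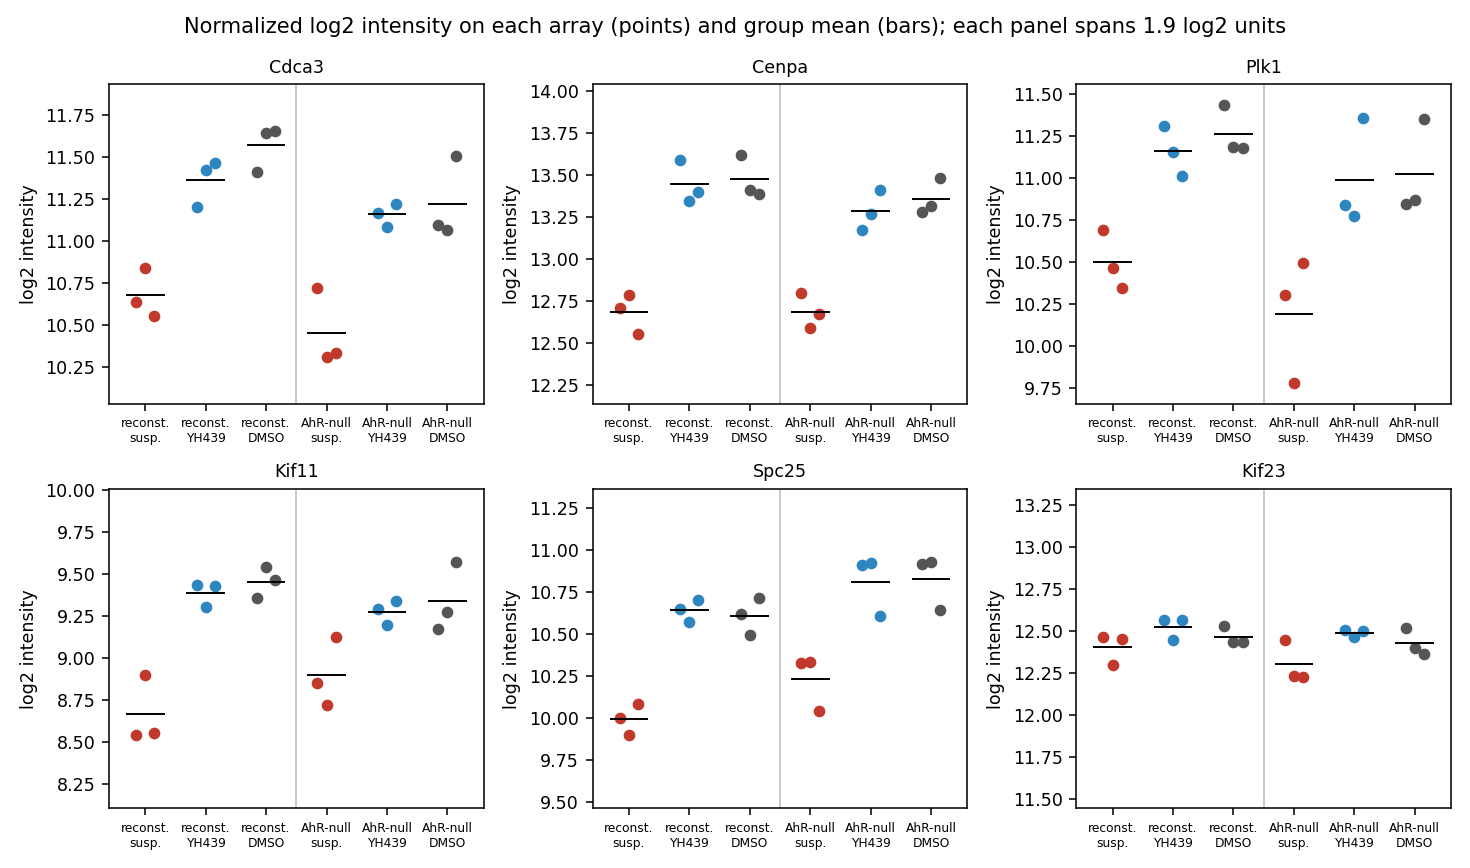
Normalized log2 intensity (y axis, 1.9 units in each panel) of 6 mitosis genes on each array (points) and the group means (bars), with reconstituted groups left and AhR-null groups right, each in the order suspension, YH439, DMSO. In the panels of Cdca3, Cenpa, Plk1, Kif11 and Spc25 the suspended arrays lie below the DMSO arrays in each line, and in that of Kif23 the groups overlap.

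Nek2, a kinase that loosens the link between centrosomes at mitotic entry, was the 1 member that rose. Its tested probe measured 6.04, 6.21 and 6.19 in suspended reconstituted cells, against 5.09, 5.19 and 5.28 with DMSO (log2 intensity). Suspended AhR-null cells had 5.74, 5.84 and 6.17, and AhR-null cells with DMSO had 4.88, 4.94 and 5.21. Suspended arrays lay above the DMSO arrays in both lines, and Nek2 rose by 0.96 ± 0.13 (1.94-fold, adjusted p = 0.000101) in reconstituted and by 0.91 ± 0.13 (1.88-fold, adjusted p = 0.000177) in AhR-null cells. The probe (ILMN_1243210) was detected on all 3 arrays of the suspended groups and on 3 reconstituted but 1 AhR-null DMSO array, so the size of the AhR-null rise rests in part on background. It is annotated to a cDNA clone. The other probes of Nek2, both annotated to its RefSeq mRNA (ILMN_2705554 and ILMN_2519385), were detected on 0 of 18 arrays, and their group means lay between 4.31 and 4.58. The rise is thus a measurement of 1 probe, and which Nek2 transcript that probe reads is not known here.

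**Figure D3:**
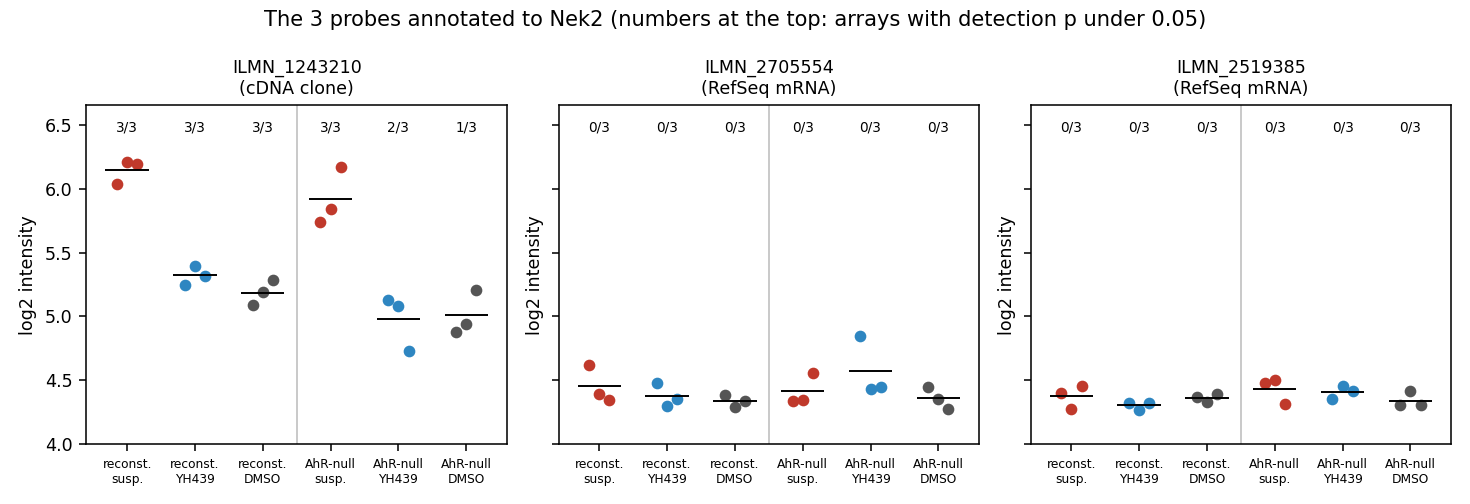
Normalized log2 intensity (y axis) of the 3 probes annotated to Nek2 on each array (points), with group means (bars) and the number of arrays with a detection p under 0.05 above each group. The cDNA clone probe is higher in suspension in both lines, while both RefSeq mRNA probes are detected on 0 arrays of every group.

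In the spindle checkpoint, which delays anaphase until chromosomes are attached, Bub1b (the checkpoint protein BUBR1) had 10.72, 10.70 and 10.37 in suspended reconstituted cells and 11.13, 11.12 and 11.18 with DMSO (log2 intensity). In AhR-null cells it had 10.65, 10.35 and 10.44 in suspension and 11.01, 11.02 and 10.89 with DMSO. The groups were apart in both lines, and Bub1b fell by 0.54 ± 0.11 (adjusted p = 0.00194) in reconstituted and 0.50 ± 0.11 (adjusted p = 0.00406) in AhR-null cells. Its call was lost in reconstituted cells with median scaling (adjusted p = 0.115) and in AhR-null cells with only the groups compared (0.0694). Mad2l1, which binds CDC20 in the checkpoint complex, fell by 0.29 ± 0.09 (adjusted p = 0.0334) and 0.30 ± 0.09 (adjusted p = 0.0339). Its call in reconstituted cells was lost without suspension replicate 3 (adjusted p = 0.181) or DMSO replicate 1 (0.11) or 3 (0.0985), and in AhR-null cells without suspension replicate 1 (0.0691) or 2 (0.105) or DMSO replicate 1 (0.0754), 2 (0.0659) or 3 (0.0898). Ttk, the kinase MPS1 that starts checkpoint signalling, stood at 0.10 ± 0.49 and 0.15 ± 0.49 and did not pass (adjusted p = 0.915 and 0.874).

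The chromosomal passenger complex corrects faulty attachments and later guides cytokinesis, and its 4 subunits had log2 changes below 0 in both lines. Cdca8 (borealin) fell by 0.47 ± 0.13 (adjusted p = 0.0135) in reconstituted and 0.54 ± 0.13 (adjusted p = 0.00631) in AhR-null cells, and its call in reconstituted cells was lost without suspension replicate 3 (adjusted p = 0.0695). Birc5 (survivin) fell by 0.44 ± 0.13 (adjusted p = 0.0187) in reconstituted cells and stood at -0.33 ± 0.13 (adjusted p = 0.0735) in AhR-null cells, where it passed with the replicate block (adjusted p = 0.00346). The reconstituted call of Birc5 was lost without suspension replicate 1 (adjusted p = 0.0554) or 3 (0.0715) or DMSO replicate 1 (0.0779) or 2 (0.0502), and the AhR-null value passed without suspension replicate 3 (adjusted p = 0.0472). Aurkb, the catalytic kinase, stood at -0.12 ± 0.13 and -0.15 ± 0.13 (adjusted p = 0.557 and 0.457), and the scaffold Incenp at -0.18 ± 0.14 in each line (adjusted p = 0.432 and 0.425). With the replicate block, Incenp was lower in both lines (adjusted p = 0.039 and 0.0363).

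At the centromere, Cenpa, the histone H3 variant that marks the site of the kinetochore, had the smallest adjusted p of the members in reconstituted cells. It measured 12.71, 12.79 and 12.56 in suspended reconstituted cells, against 13.62, 13.41 and 13.39 with DMSO (log2 intensity). AhR-null values were 12.80, 12.59 and 12.67 in suspension and 13.28, 13.32 and 13.49 with DMSO. No suspended array reached a DMSO array of its line, and Cenpa fell by 0.79 ± 0.11 (1.73-fold lower, adjusted p = 9.49e-05) in reconstituted and 0.67 ± 0.11 (1.60-fold lower, adjusted p = 0.000401) in AhR-null cells. Both kept probes of Cenpa passed as lower in each line.

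Of the NDC80 complex, which binds microtubules at the kinetochore, Nuf2 and Spc25 fell. Nuf2 had 6.90, 6.81 and 6.71 in suspended reconstituted cells and 7.45, 7.29 and 7.41 with DMSO, and 6.68, 6.16 and 6.48 in suspended AhR-null cells, against 7.45, 7.24 and 7.12 with DMSO (log2 intensity). It fell by 0.58 ± 0.14 (adjusted p = 0.00571) and by 0.83 ± 0.14 (adjusted p = 0.000385), with no overlap between groups, and the reconstituted call was lost with median scaling (adjusted p = 0.197). The tested Nuf2 probe (ILMN_1228980) is annotated to a cDNA clone. The probe annotated to the RefSeq mRNA of Nuf2 (ILMN_2755241) was detected on 0 of 18 arrays. The fall of Nuf2 is thus a measurement of 1 probe, and which transcript that probe reads is not known here. Spc25 read 10.00, 9.90 and 10.08 in suspended reconstituted cells, against 10.62, 10.49 and 10.71 with DMSO. AhR-null Spc25 values were 10.33, 10.33 and 10.04 in suspension and 10.92, 10.93 and 10.64 with DMSO, where replicate 3 was lowest in both groups. Spc25 fell by 0.62 ± 0.12 (adjusted p = 0.00156) and 0.60 ± 0.12 (adjusted p = 0.00221), and with median scaling neither call held (adjusted p = 0.137 and 0.0589). Ndc80 itself stood at 0.11 ± 0.14 and 0.17 ± 0.14 (adjusted p = 0.633 and 0.453), and it was higher in AhR-null cells with the replicate block (adjusted p = 0.0352). Spc24 stood at -0.28 ± 0.26 and -0.23 ± 0.26 at its brightest probe (adjusted p = 0.513 and 0.605), which was lower in both lines with the replicate block (adjusted p = 0.0162 and 0.0399). The other kept probe of Spc24 fell by 0.88 ± 0.17 (adjusted p = 0.0016) and 0.91 ± 0.17 (adjusted p = 0.00134), with p adjusted over all kept probes. Cenpf, a large kinetochore and nuclear matrix protein, stood at -0.17 ± 0.50 and -0.33 ± 0.50 (adjusted p = 0.857 and 0.709) at its brightest probe. Its other kept probe (ILMN_2666731) stood at -0.33 ± 0.12 (adjusted p = 0.07) in reconstituted cells and fell by 0.41 ± 0.12 (adjusted p = 0.025) in AhR-null cells.

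Among the spindle and chromosome genes, Kif11, the kinesin that pushes spindle poles apart, measured 8.54, 8.90 and 8.55 in suspended reconstituted cells, against 9.35, 9.54 and 9.46 with DMSO (log2 intensity). In AhR-null cells the values were 8.85, 8.72 and 9.12 in suspension and 9.17, 9.27 and 9.57 with DMSO, close to each other but without overlap. Kif11 fell by 0.79 ± 0.13 (1.73-fold lower, adjusted p = 0.000477) in reconstituted and 0.44 ± 0.13 (1.36-fold lower, adjusted p = 0.0244) in AhR-null cells. The AhR-null call was lost without suspension replicate 1 (adjusted p = 0.0707) or 2 (0.111) or DMSO replicate 3 (0.11). The difference between the lines was -0.35 ± 0.19 and did not pass (adjusted p = 1).

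Nusap1, which bundles spindle microtubules, fell by 0.49 ± 0.10 (adjusted p = 0.00209) and 0.47 ± 0.10 (adjusted p = 0.00341), with neither call held under median scaling (adjusted p = 0.169 and 0.0756). Top2a, the topoisomerase that untangles sister chromatids, fell by 0.47 ± 0.12 (adjusted p = 0.0113) and 0.55 ± 0.12 (adjusted p = 0.00474). The Top2a value comes from the probe to its RefSeq mRNA, while a probe to a cDNA clone (ILMN_1255436) stood at 0.01 ± 0.09 in reconstituted and -0.02 ± 0.09 in AhR-null cells. Kif2c, a kinesin that takes microtubules apart at centromeres, stood at -0.29 ± 0.14 and -0.30 ± 0.14 (adjusted p = 0.175 and 0.154), and Kif4, a chromosome-bound kinesin, at -0.26 ± 0.12 and -0.30 ± 0.12 (adjusted p = 0.146 and 0.0905). Both were lower in each line with the replicate block (adjusted p = 0.0136 and 0.0105 for Kif2c, 0.0126 and 0.00546 for Kif4), and Kif4 also passed in AhR-null cells without suspension replicate 1 (adjusted p = 0.0147). The Kif4 value is that of its brightest probe, and the other kept probes (ILMN_2747641 and ILMN_1232030) fell by 0.47 ± 0.13 and 0.40 ± 0.11 in reconstituted cells (adjusted p = 0.0146 and 0.0175) and stood at -0.31 ± 0.13 and -0.28 ± 0.11 in AhR-null cells (adjusted p = 0.104 and 0.0861). Tpx2, which activates Aurora A on the spindle, lay the other way at 0.30 ± 0.25 and 0.22 ± 0.25 (adjusted p = 0.449 and 0.613), and was higher in reconstituted cells with the block (adjusted p = 0.0162). Hmmr, a spindle assembly factor, stood at 0.07 ± 0.51 and -0.47 ± 0.51 (adjusted p = 0.948 and 0.573).

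Of the cytokinesis genes, Ect2, the exchange factor that activates RhoA at the cleavage furrow, fell by 0.56 ± 0.16 (adjusted p = 0.0183) in reconstituted cells and stood at -0.45 ± 0.16 (adjusted p = 0.0522) in AhR-null cells, where it passed with the replicate block (adjusted p = 0.00368) and without suspension replicate 1 (0.0342). Its reconstituted call was lost without suspension replicate 2 (adjusted p = 0.0775) or DMSO replicate 1 (0.0873). These Ect2 values come from a probe to a cDNA clone (ILMN_1239773). The probe to the RefSeq mRNA of Ect2 (ILMN_2760144) stood at 0.21 ± 0.44 in reconstituted and -0.33 ± 0.44 in AhR-null cells. Kif23, a kinesin of the central spindle, measured 12.46, 12.30 and 12.45 in suspended reconstituted cells, against 12.53, 12.44 and 12.43 with DMSO, and these arrays overlapped. Its log2 changes were -0.06 ± 0.09 and -0.13 ± 0.09 (adjusted p = 0.692 and 0.374), among the smallest standard errors of the members. Prc1, which bundles the central spindle, stood at -0.36 ± 0.14 and -0.34 ± 0.14 (adjusted p = 0.0836 and 0.109), and Anln (anillin, a scaffold of the contractile ring) at -0.35 ± 0.18 and -0.42 ± 0.18 (adjusted p = 0.171 and 0.107). With the block both were lower in each line (adjusted p = 0.00384 and 0.00581 for Prc1, 0.00337 and 0.00125 for Anln).

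In the anaphase trigger, Cdc20, the activator of the anaphase-promoting complex, had 11.39, 11.39 and 11.25 in suspended reconstituted cells, against 11.70, 11.79 and 11.80 with DMSO (log2 intensity). It had 11.32, 11.09 and 10.84 in suspended AhR-null cells and 11.54, 11.59 and 11.70 with DMSO, again with no overlap. The falls were 0.42 ± 0.11 (adjusted p = 0.0117) and 0.52 ± 0.11 (adjusted p = 0.00295), and the reconstituted call was lost with median scaling (adjusted p = 0.25), with the authors' processed values (0.167) and without suspension replicate 3 (0.0556). The AhR-null call was lost with median scaling (adjusted p = 0.0537) and with only the groups compared (0.0902). Ube2c, the ubiquitin-conjugating enzyme of the same complex, stood at -0.01 ± 0.60 and -0.36 ± 0.60 (adjusted p = 0.992 and 0.744), and was lower in AhR-null cells with the block (adjusted p = 0.0365). Pttg1 (securin) stood at -0.17 ± 0.27 and 0.10 ± 0.27 (adjusted p = 0.719 and 0.842).

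The wide standard errors of Ccna2, Ube2c, Ttk and Hmmr came with AhR-null arrays that split by replicate number in all 3 treatments. Ccna2 with DMSO measured 9.54, 9.35 and 7.62 in AhR-null replicates 1, 2 and 3, and 7.81, 7.45 and 8.00 in the reconstituted replicates (log2 intensity). AhR-null replicate 3 lay among or near the reconstituted arrays, and AhR-null replicates 1 and 2 lay above every reconstituted array. Ccna2 in AhR-null replicate 3 was below the mean of replicates 1 and 2 in each treatment (differences of -1.87 in suspension, -1.59 with YH439 and -1.83 with DMSO). Ube2c showed differences of -1.83, -1.85 and -1.86, Ttk (ILMN_2438303) of -1.48, -1.48 and -1.65, and Hmmr of -1.33, -2.16 and -1.22. A probe of Nusap1 (ILMN_1231500) had -1.14, -1.03 and -1.21, while the tested Nusap1 probe (ILMN_2653765) had -0.28, -0.05 and -0.14. The split was thus not shared by both of these Nusap1 probes. Ccna2, Ube2c and Hmmr had 1 kept probe each, so probes could not be compared for them. Of the 61 kept probes of mitosis genes, these 5 (8.2%) stood at least 1 log2 unit apart in AhR-null replicate 3 in all 3 treatments, as did 4.33% of the 22203 kept probes. AhR-null replicate 3 was among the dimmest arrays, and the part of signal strength in the split was not tested.

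**Figure D4:**
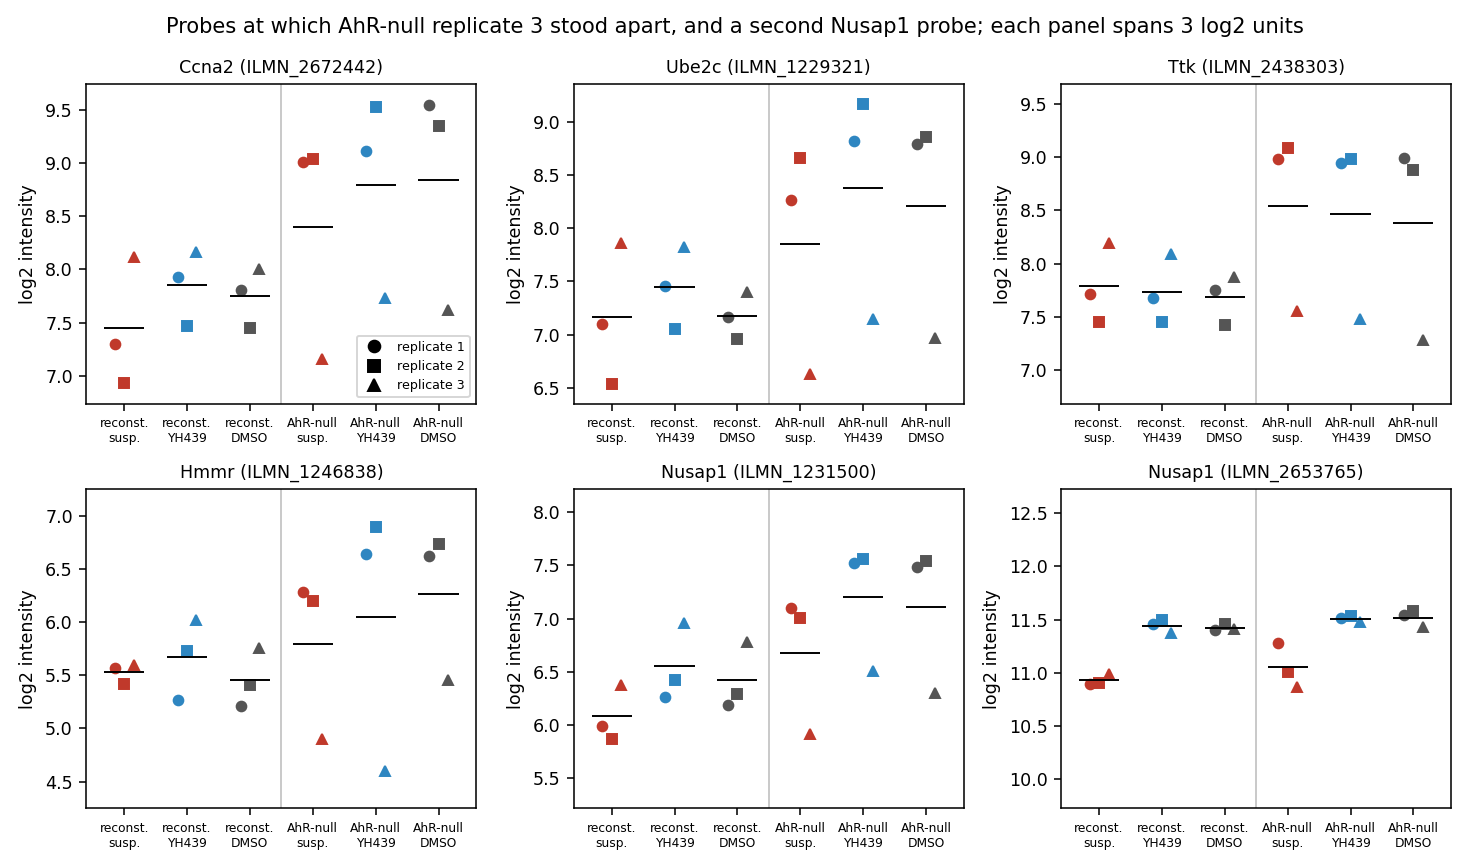
Normalized log2 intensity (y axis, 3 units in each panel) by group, with marker shape giving the replicate number and bars the group means, for Ccna2, Ube2c, Ttk, Hmmr and both Nusap1 probes named in the text. In the first 5 panels AhR-null replicates 1 and 2 lie well above AhR-null replicate 3 in all 3 treatments, and in the last they do not.

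The suspension responses of the lines did not differ past the threshold for any tested mitosis gene. In limma's test of the difference (reconstituted minus AhR-null), 0 of 33 members passed and 0 had an unadjusted p under 0.05, while 0.00897% of all genes passed and 295 genes were under 0.05 before adjustment. The members' median difference was 0.00 on the log2 scale. The differences ran between -0.35 ± 0.19 (Kif11) and 0.54 ± 0.72 (Hmmr), with 0.26 ± 0.19 for Nuf2, -0.03 ± 0.16 for Cdk1 and -0.02 ± 0.17 for Spc25. For Ube2c (0.34 ± 0.85) and Hmmr the errors leave large differences undetected. A p that misses the threshold does not show that the lines respond alike. The comparisons of the lines have separate DMSO controls.

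YH439 moved no mitosis gene past the threshold in either line. In reconstituted cells 0 of 33 members passed, where 0.135% of all genes did, and 1 member and 297 genes had an unadjusted p under 0.05 in limma's test. The members' changes ran between -0.48 and 0.27 on the log2 scale, with a median of -0.02. The lowest of the 33 was Nuf2, with 6.70, 7.11 and 6.91 under YH439 and 7.45, 7.29 and 7.41 with DMSO, and it did not pass (-0.48 ± 0.14, adjusted p = 0.54). In AhR-null cells 0 members passed, as did 0% of all genes, and 0 members and 185 genes had an unadjusted p under 0.05. The AhR-null changes ran between -0.28 (Nuf2) and 0.19 (Pttg1), with a median of -0.02. Cdk1 under YH439 stood at 0.03 ± 0.11 in reconstituted and 0.10 ± 0.11 in AhR-null cells, and Cenpa at -0.03 ± 0.11 and -0.08 ± 0.11. The difference of the YH439 responses between the lines gave 0 members past the threshold (0.0269% of all genes, with 0 members and 188 genes at an unadjusted p under 0.05). YH439 and suspension were each compared with the same DMSO arrays of their line.

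**Figure D5:**
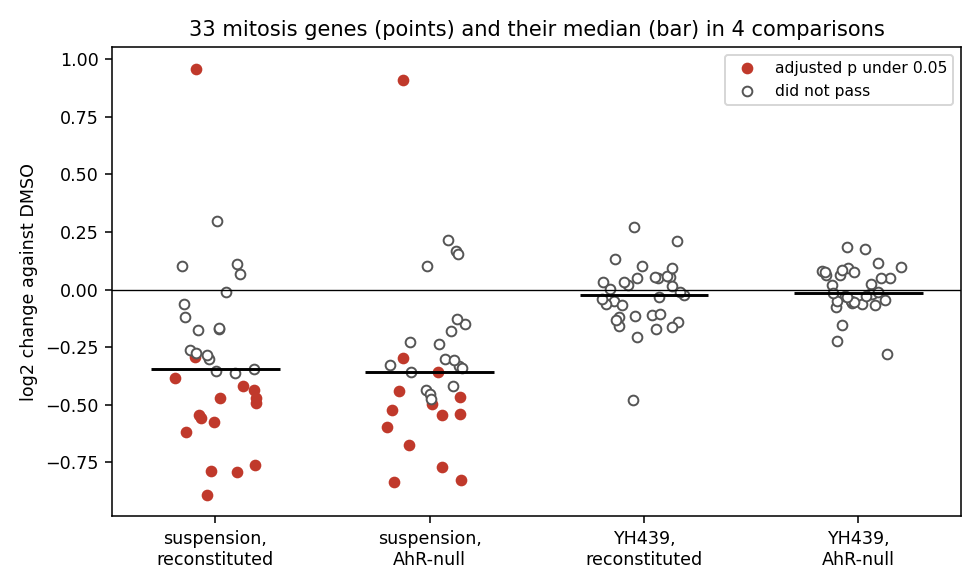
Log2 change against DMSO (y axis) of the 33 tested mitosis genes (points, spread sideways at random) and their median (bars) for suspension and YH439 in each line, with red points for an adjusted p under 0.05. In suspension the medians lie at -0.34 and -0.36 and Nek2 stands alone above 0.9, while under YH439 both medians are -0.02 and no point is red.

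Between the lines under DMSO, 0 of 33 mitosis genes passed (reconstituted minus AhR-null), where 0.547% of all genes did. In limma's test 2 members and 1060 genes had an unadjusted p under 0.05. The 2 members were Cdca3, with 11.41, 11.64 and 11.65 in reconstituted and 11.09, 11.07 and 11.50 in AhR-null cells (0.35 ± 0.14, adjusted p = 0.461), and Kif2c (0.36 ± 0.14, adjusted p = 0.434). Without the 6 dimmest arrays, 11 members passed (6 higher, 5 lower), where 24.3% of all genes did. In that fit Ccna2 (-1.72, adjusted p = 0.0118), Ube2c (-1.64, 0.0168), Ttk (-1.29, 0.0103), Hmmr (-1.09, 0.00336) and Spc25 (-0.32, 0.0423) were lower in reconstituted cells, and Pttg1 (0.84, 0.0147), Cdca3 (0.57, 0.0167), Kif2c (0.47, 0.0237), Nek2 (0.33, 0.0171), Incenp (0.31, 0.0152) and Cdk1 (0.26, 0.0466) were higher. Set against each other alone, the dim arrays gave other values: reconstituted replicate 1 minus AhR-null replicate 3 under DMSO was 0.19 for Ccna2, 0.19 for Ube2c, 0.47 for Ttk and -0.24 for Hmmr, from 1 array each. Whether the lines differ in these genes thus depended on which arrays were used.

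Genes of the same pathways outside the group were read from lists. Of 31 other tested kinetochore and checkpoint genes, 6 fell and 0 rose in suspended reconstituted cells, and 3 fell and 0 rose in suspended AhR-null cells. These shares, 19.4% and 9.68% lower, lie near the 13.4% and 11.9% of all genes. Cenpm and Cenpw, subunits of the constitutive centromere network, fell by 1.20 ± 0.21 (adjusted p = 0.000777) and 0.73 ± 0.10 (adjusted p = 7.36e-05) in reconstituted cells and by 1.00 ± 0.21 (adjusted p = 0.00323) and 0.69 ± 0.10 (adjusted p = 0.000117) in AhR-null cells. Zwilch, a checkpoint protein, and Sgo2a, a shugoshin that protects centromeric cohesion, fell by 0.47 and 0.35 in reconstituted cells (adjusted p = 0.0114 and 0.00833) and stood at -0.19 and -0.20 in AhR-null cells (adjusted p = 0.32 and 0.123). Of 22 other regulators of G2 and mitosis, 6 fell in reconstituted and 7 in AhR-null cells and 0 rose (27.3% and 31.8% lower, against 13.4% and 11.9% of all genes). Among these, Arpp19, an inhibitor of the phosphatase that opposes CDK1, fell by 0.66 ± 0.08 (adjusted p = 3.67e-05) and 0.58 ± 0.08 (adjusted p = 0.000119). Lmnb1, of the nuclear lamina, fell by 0.64 and 0.69, the mitotic kinase Pbk by 0.68 and 0.55, and Pimreg by 0.78 and 0.68, each past the threshold in both lines.

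Of 37 other spindle, centrosome and cytokinesis genes, 6 fell and 1 rose in reconstituted cells, and 2 fell and 0 rose in AhR-null cells (16.2% and 5.41% lower, against 13.4% and 11.9% of all genes). Tubg1, the gamma-tubulin that nucleates microtubules, fell by 0.74 ± 0.15 (adjusted p = 0.00198) and 0.68 ± 0.15 (adjusted p = 0.00402). Cit (citron kinase), Ckap5 (a microtubule polymerase) and Kif22 (a chromokinesin) fell by 0.59, 0.54 and 0.42 in reconstituted cells and stood at -0.17, -0.39 and -0.35 in AhR-null cells (adjusted p = 0.506, 0.0822 and 0.0521). Of 21 condensin and cohesin genes, 3 fell and 1 rose in reconstituted cells and 1 fell in AhR-null cells: the condensin core Smc2 fell by 0.35 and 0.39 in the lines, while Espl1 (separase) and Ncaph fell by 0.40 and 0.37 and the cohesin acetyltransferase Esco1 rose by 0.37 in reconstituted cells. The condensin and cohesin shares were 14.3% and 4.76% lower, again near or under those of all genes. Of 17 subunits and regulators of the anaphase-promoting complex, 2 fell in each line, Anapc13 (by 0.47 in each) and Cdc23 (by 0.39 in each), a share of 11.8% in each. Of 7 NEK kinases other than Nek2, 1 fell in reconstituted cells (Nek7, by 0.44, adjusted p = 0.03), a share of 14.3%, near the 13.4% of all genes. In AhR-null cells 0 passed, where 22.6% of all genes did. None of the 7 rose in either line, while 1194 and 1201 of all 11149 genes rose in reconstituted and AhR-null cells. With so few genes tested, these counts do not set the list apart from all genes.

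Among 21 regulators of mitotic gene transcription, 3 rose and 1 fell in reconstituted cells, and 3 rose and 2 fell in AhR-null cells (19% and 23.8% called, against 24.1% and 22.6% of all genes). Cdkn1a, which encodes the CDK inhibitor p21, rose by 0.97 ± 0.13 (adjusted p = 6.9e-05) and 1.11 ± 0.13 (adjusted p = 2.02e-05). Lin54, the DNA-binding subunit of MuvB, rose by 0.55 ± 0.14 (adjusted p = 0.0094) and 0.63 ± 0.14 (adjusted p = 0.00429). E2f3 rose by 0.62 in reconstituted cells and stood at 0.35 in AhR-null cells (adjusted p = 0.0687), and the repressor E2f6 fell by 0.47 in AhR-null cells and stood at -0.28 in reconstituted cells (adjusted p = 0.0847). Of 40 DNA replication genes, 4 rose and 7 fell in reconstituted and 5 rose and 5 fell in AhR-null cells (27.5% and 25% called, near the 24.1% and 22.6% of all genes). Tk1 and Rrm2, which supply nucleotides, fell by 0.86 and 0.76 in reconstituted and 0.78 and 0.79 in AhR-null cells, Dut fell by 0.74 and 0.70, and the origin licensing factor Cdt1 rose by 0.78 and 0.63.

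Of the markers of other cell types, 1 of the 3 tested bile duct genes rose in each line and the other 2 did not pass. Krt19 and Sox9 were detected on all 18 arrays and Epcam on 0. The summed log2 level of the list, which rests on its 3 tested genes, ran between 24.3 and 24.6 in suspended and 22.4 and 22.8 in DMSO-treated reconstituted cells. In AhR-null cells it ran between 23.8 and 24.9 in suspension and 22.5 and 22.9 with DMSO. The macrophage list had 1 of 3 tested members higher in each line. Csf1r, Cd14 and Lyz2 of this list were detected on all 18 arrays and Adgre1, Ptprc and Clec4f on 0. Its sum ran between 20.2 and 20.7 in suspended and 19.3 and 19.8 in DMSO-treated reconstituted cells, and between 20.3 and 20.7 in suspended and 19.9 and 20.1 in DMSO-treated AhR-null cells. Of the mesenchymal markers 2 rose and 2 fell of 13 in each line, and of the endothelial markers 0 of 2 passed. Of 9 tested hepatocyte genes, 2 rose and 1 fell in reconstituted cells, and 2 rose and 0 fell in AhR-null cells. Their sum ran between 54.8 and 56.8 in suspended and 54.0 and 54.7 in DMSO-treated reconstituted cells, without overlap, and between 54.6 and 56.1 in suspended and 53.5 and 55.0 in DMSO-treated AhR-null cells, with overlap. The share called was 33.3% in each line for the bile duct and macrophage lists and 30.8% for the mesenchymal list. For the hepatocyte list it was 33.3% in reconstituted and 22.2% in AhR-null cells. Of all genes 24.1% and 22.6% passed, and each list holds few tested genes. The part of these markers in the fall of the mitosis genes was not tested.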

How the data were processed

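The submitters' processing notes name BeadStudio, with no version. The deposited table of non-normalized values gives the background-subtracted intensity of each probe and, beside it, a detection p-value. The authors' processed intensity table, linear with a floor of 20 and of unknown scaling between arrays, served as an alternative.

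From these files, limma 3.58.1 in R 4.3.3 corrected background (neqc, offset 16), applied quantile normalization and log-transformed (log2). The filter required a detection p-value below 0.05 on 3 or more of the 18 arrays, which left 22203 of 45281 probes. A single gene was named by 34885 probes, several by 18 and none by 10378; RefSeq (GRCm38.p6) held 34807 of them and changed 0 symbols. A gene was represented by its brightest kept probe (by mean), and levels were not compared between probes. Group means were fitted over all 18 arrays (lmFit and eBayes, 12 residual degrees of freedom), with two-sided tests and Benjamini-Hochberg adjustment over 11149 genes, or over all kept probes where stated. A ± gives the standard error of a log2 change.

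Members and lists were chosen with earlier results of these data known. All 39 members are named, and from each list up to 4 members with the smallest p past the threshold in a suspension comparison. Replicate numbers were taken as pairing arrays within a line, since the 18 same-numbered pairs correlated at r = 0.173 to 0.862 (median 0.55) in their deviations from group means. The 36 differently numbered pairs within a line had r between -0.807 and 0.683 (median -0.36). AhR-null replicates 1 and 2 were not told apart: suspension replicate 1 had r = 0.588 with YH439 replicate 1 and 0.606 with YH439 replicate 2. Counts with the block rest on this assumed pairing. The exception is the comparison of the lines under DMSO, where the block was the replicate number shared across the lines. The script was tested on simulated data.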

Additional observations from a re-analysis of the deposited data

How the results depend on the processing

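The suspension counts of 16 members in reconstituted and 14 in AhR-null cells stood at 8 in reconstituted cells with median scaling (7 lower, 1 higher) and at 3 in AhR-null cells with only the groups compared (2 lower, 1 higher). Pairing arrays by the replicate block gave 24 and 26 members and lost 0 calls. In the other 5 comparisons a block also gave 0 members. For the lines under DMSO that block joined arrays of the same number across the lines. Such arrays had a median r of -0.397, so this 0 does not rest on the pairing within a line. Leaving out 1 array at a time gave 12 to 14 members in reconstituted and 11 to 15 in AhR-null cells. In these fits 17.6% to 19.3% and 17.1% to 23.6% of all genes passed. The count between the lines under DMSO was 11 without the 6 dimmest arrays, an alternative chosen after seeing the data, and 0 under the others. Over all 15 alternatives Cdca3, Cenpa, Kif11, Plk1, Top2a and Nek2 passed in reconstituted cells, and Cenpa, Nuf2 and Nek2 in AhR-null cells. Among the member changes under alternatives, 58 lost their call and 51 newly passed, with 0 changes of sign among these or among those called in both fits. Of those called in neither fit, 3003 kept their sign and 357 changed it. Median scaling moved the median of all genes in suspended AhR-null cells to -0.13, against -0.04, and their calls to 643 higher and 1212 lower, against 1201 and 1323; the members' median was then -0.51. Counts of all genes were 1571 with median scaling and 5421 with the block in reconstituted cells, against 2689, and 861 with only the groups compared and 5250 with the block in AhR-null cells, against 2524. Members near background, such as Nek2 and the 5 untested genes with probes, are limited by signal.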

Other observations

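The arrays that stood apart at probes of Ccna2, Ube2c, Ttk, Hmmr and Nusap1 did so at other genes too. Of 22203 kept probes, 961 lay at least 1 log2 unit from the other replicates in AhR-null replicate 3 in all 3 treatments, against 87 in AhR-null replicate 2, 8 in AhR-null replicate 1 and 0 in each reconstituted replicate.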
